A study of Homo sapiens with 6 samples.

Results

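The APOBEC3 genes encode cytidine deaminases, enzymes that convert cytosine to uracil in single-stranded DNA, and 7 of them lie side by side on human chromosome 22. The members APOBEC3A, APOBEC3B, APOBEC3C, APOBEC3D, APOBEC3F, APOBEC3G and APOBEC3H were taken by gene symbol as 1 named family, a choice made with earlier results of these data known. Each symbol had 1 probe set, which gave 7 members among 39261 probe sets with a gene name. Of these, APOBEC3G was the only member that changed in limma after H19 siRNA transfection: it was downregulated to 83.8% of the control signal, while the other 6 members did not pass the test. Over all named probe sets 5.26% passed, and the APOBEC3G call was lost without any 1 of the 6 arrays.

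The study asked which genes respond when the long noncoding RNA H19 is knocked down in MIA-PaCa2, an established human pancreatic carcinoma cell line. All 6 arrays came from MIA-PaCa2 cells transfected with siRNA using Lipofectamine 2000, so the controls carried the transfection reagent too. The control group (NC, n = 3) received AllStars Negative Control siRNA and the treated group (siH19-2, n = 3) received 1 FlexiTube siRNA against H19, at 50 nM by the methods and 20 µg by the sample labels, and RNA was taken 24 h after transfection and hybridized to Clariom D arrays. The study also used another H19 siRNA, which is not among these 6 arrays. Whether a change came from the loss of H19 or from the siH19-2 siRNA itself was not tested. The study describes the arrays as run in triplicate and its quantitative data in general as coming from independent experiments. Whether the arrays of a group came from separate cultures is not stated for them, so all p-values measure only the spread between these arrays, which may be technical.

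Values are log2 array signals as normalized by the authors, so a difference of 1 is a doubling. Signals of different probe sets depend on their probes, so a higher signal for 1 gene than for another does not show more RNA. H19 itself gave 7.36, 7.43 and 7.42 in the NC arrays and 7.10, 7.09 and 7.13 in the siH19-2 arrays. The groups did not overlap, and H19 fell by 0.30 on the log2 scale (SE 0.036) to 81.3% of control (95% CI 76.4 to 86.5, limma adjusted p = 0.012). That call was lost without NC replicate 2 (limma adjusted p = 0.067), NC replicate 3 (0.063), siH19-2 replicate 1 (0.059) or siH19-2 replicate 2 (0.053). By size of fall, H19 ranked only 1568 among the 39261 named probe sets. Arrays correlated at r = 0.993 to 0.995 within a group and 0.991 to 0.993 between groups. Among the cell line markers, mean NC signals were 9.74 for KRT8, 9.43 for KRT18 and 13.09 for VIM, and none of the 3 changed in limma. Of 31 markers of leukocytes, endothelium, acinar and islet pancreas and fibroblasts, 2 fell, LYZ by 0.26 and COL1A2 by 0.19 on the log2 scale, and none rose. The array means over these 31 markers were 6.08 to 6.09 in NC and 6.09 to 6.11 in siH19-2, and the mean NC signals of single markers ran from 3.99 to 10.03 with a median of 6.05. The pan-leukocyte marker PTPRC stood at 4.53, whereas the fibroblast collagen gene COL1A2 stood at 10.03, the macrophage marker CD68 at 8.76, insulin (INS) at 7.96 and LYZ at 7.95. An array has no true zero, and the part of these signals in any result was not tested.

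APOBEC3 enzymes restrict retroviruses and retrotransposons. APOBEC3G is packaged into HIV particles that lack the viral protein Vif and deaminates the newly made viral DNA, and Vif counters it by recruiting a ubiquitin ligase built on CUL5 and the host factor CBFB. APOBEC3B, APOBEC3D, APOBEC3F and APOBEC3G have paired deaminase domains, whereas APOBEC3A, APOBEC3C and APOBEC3H have a single one. Several members, APOBEC3G and APOBEC3A among them, are induced by interferon in many cell types, and APOBEC3A and APOBEC3B are known as sources of mutations in cancer genomes.

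APOBEC3G (gene ID 60489) gave 7.06, 7.08 and 7.11 in the NC arrays and 6.85, 6.79 and 6.84 in the siH19-2 arrays. Each siH19-2 array lay below each NC array, and the gap between the groups was wider than the range within either group. The NC mean was 7.08 ± 0.023 (SD, n = 3), whereas siH19-2 averaged 6.83 ± 0.032 (SD, n = 3). APOBEC3G fell by 0.25 on the log2 scale (SE 0.036, 95% CI -0.34 to -0.17), to 83.8% of control (95% CI 78.9 to 89.1), with a limma adjusted p of 0.018. The exact two-sided permutation test over the 6 arrays gave p = 0.1, the smallest that 3 arrays against 3 allow. Over all named probe sets, 5.26% passed the limma test in either direction and 2.63% were lower in siH19-2. Among the 1032 probe sets that fell, 807 (78.2%) fell by more than APOBEC3G. The APOBEC3G call was lost without any 1 of the 6 arrays, with limma adjusted p-values from 0.051 without siH19-2 replicate 3 to 0.084 without NC replicate 2, while the log2 fold change stayed between -0.27 and -0.24. In a bulk sample less RNA per cell and fewer cells that express the gene cannot be told apart.

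**Figure D1:**
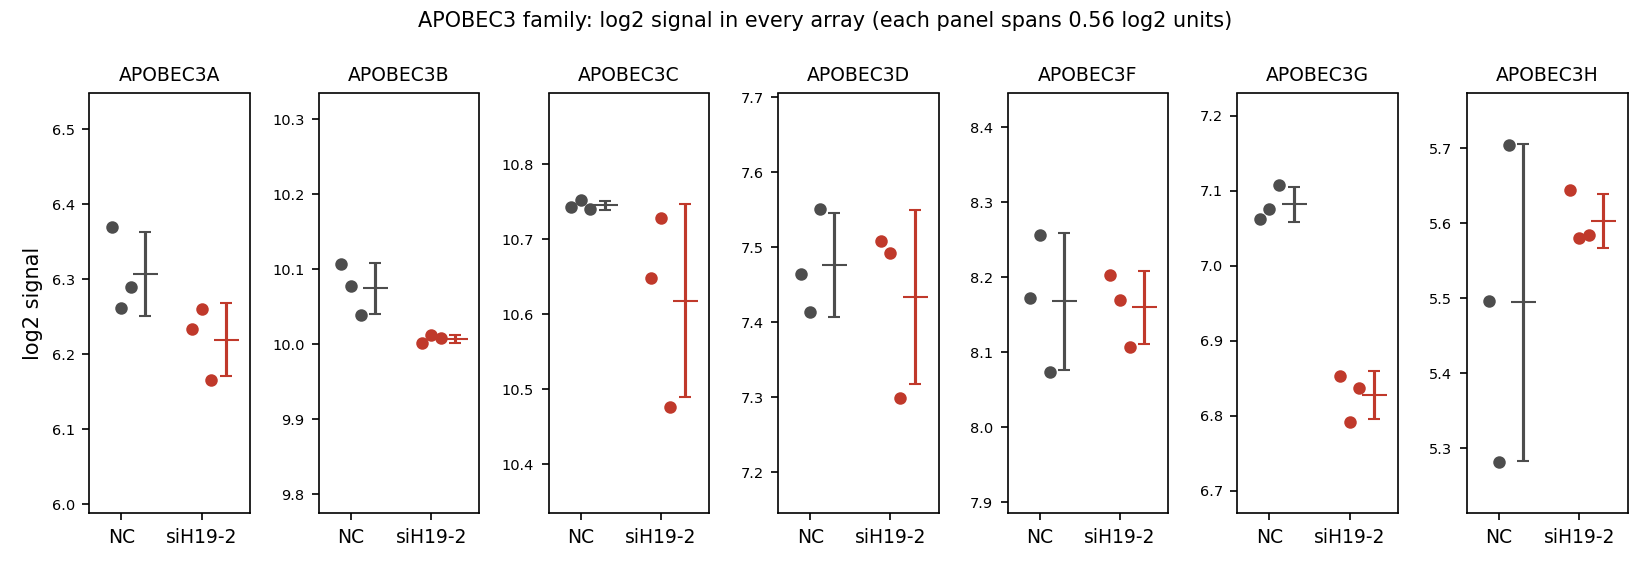
Log2 signal (y axis) of each APOBEC3 gene in the 3 NC arrays (grey points) and the 3 siH19-2 arrays (red points), with horizontal marks for the group mean and error bars for the SD. Each panel has its own range of equal width. The APOBEC3G groups are separated by a gap wider than their ranges, whereas APOBEC3D, APOBEC3F and APOBEC3H overlap.

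The other members with paired deaminase domains did not change in limma. APOBEC3B (gene ID 9582), a nuclear deaminase, gave 10.11, 10.08 and 10.04 in NC and 10.00, 10.01 and 10.01 in siH19-2. All siH19-2 arrays lay below all NC arrays, but the log2 fold change was only -0.067 (SE 0.034, 95% CI -0.15 to 0.017, limma adjusted p = 0.34), or 95.4% of control. For APOBEC3D (gene ID 140564), a weaker restriction factor of HIV, the signals were 7.46, 7.41 and 7.55 in NC and 7.51, 7.49 and 7.30 in siH19-2. Here the groups overlapped, and the lowest value was siH19-2 replicate 3. Its log2 fold change was -0.043 (SE 0.071, 95% CI -0.22 to 0.13, limma adjusted p = 0.79) and became 0.024 without siH19-2 replicate 3. APOBEC3F (gene ID 200316), which restricts HIV alongside APOBEC3G, gave 8.17, 8.26 and 8.07 in NC and 8.20, 8.17 and 8.11 in siH19-2. These values were fully interleaved, with a log2 fold change of -0.0075 (SE 0.058, 95% CI -0.15 to 0.13, limma adjusted p = 0.96). That small difference turned positive without NC replicate 2 (0.037) or siH19-2 replicate 3 (0.019).

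None of the members with a single deaminase domain changed in limma either. APOBEC3A (gene ID 200315), a highly active deaminase of myeloid cells, gave 6.37, 6.26 and 6.29 in NC and 6.23, 6.26 and 6.17 in siH19-2. The siH19-2 arrays were all lower, although siH19-2 replicate 2 and NC replicate 2 were equal to the second decimal. The log2 fold change of APOBEC3A was -0.088 (SE 0.047, 95% CI -0.20 to 0.027, limma adjusted p = 0.36). For APOBEC3C (gene ID 27350), a broadly expressed member, the signals were 10.74, 10.75 and 10.74 in NC and 10.65, 10.73 and 10.48 in siH19-2. All siH19-2 arrays were lower, yet their SD was 0.13 against 0.0062 in NC, and siH19-2 replicate 3 lay well below the others. The log2 fold change of APOBEC3C was -0.13 (SE 0.068, 95% CI -0.29 to 0.040, limma adjusted p = 0.37) and shrank to -0.057 without that array. APOBEC3H (gene ID 164668), whose deaminase domain is of a separate type, gave 5.50, 5.28 and 5.70 in NC and 5.64, 5.58 and 5.58 in siH19-2. The NC arrays alone spanned all siH19-2 arrays, and the log2 fold change was 0.11 (SE 0.11, 95% CI -0.15 to 0.37, limma adjusted p = 0.63).

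Over the family, 1 of 7 members was called by limma, against 5.26% of all named probe sets. Among probe sets brighter than the median, which include all members except APOBEC3H, 9.84% were called. Of the members' log2 fold changes 6 were negative and 1 positive, and those of APOBEC3D and APOBEC3F changed sign when single arrays were left out. The median log2 fold change of the members was -0.067, against 0.016 over all named probe sets. All siH19-2 arrays lay below all NC arrays for 4 members, APOBEC3A, APOBEC3B, APOBEC3C and APOBEC3G, and 3 overlapped. Of all named probe sets, 9.98% showed that arrangement, and of those brighter than the median 15.4% did. No member was past an unadjusted limma p below 0.05 together with a log2 fold change larger than 1 in size, thresholds modeled on those of the study's volcano plot, which 30 probe sets met.

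A member that did not pass is not shown to be unchanged. The lower bounds for APOBEC3C (-0.29), APOBEC3D (-0.22) and APOBEC3A (-0.20) reached into the interval of APOBEC3G. The change of APOBEC3G was then compared with that of each other member by differences within each array. APOBEC3G fell further than APOBEC3B by 0.19 on the log2 scale (SE 0.039, 95% CI of the difference -0.30 to -0.078). The same difference was -0.25 against APOBEC3F (SE 0.070, 95% CI -0.44 to -0.051), -0.36 against APOBEC3H (SE 0.11, 95% CI -0.68 to -0.046) and -0.17 against APOBEC3A (SE 0.058, 95% CI -0.33 to -0.0053). Against APOBEC3C it was -0.13 (SE 0.087, 95% CI -0.37 to 0.11) and against APOBEC3D -0.21 (SE 0.079, 95% CI -0.43 to 0.0076), and both intervals included 0. These 6 intervals are not adjusted for their number, and 4 of them excluded 0. Only 1 did without siH19-2 replicate 1 or siH19-2 replicate 2, and 2 without NC replicate 1. Without siH19-2 replicate 3 the intervals against APOBEC3C (-0.38 to -0.023) and APOBEC3D (-0.42 to -0.15) excluded 0. Those against APOBEC3A and APOBEC3H then included 0.

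**Figure D2:**
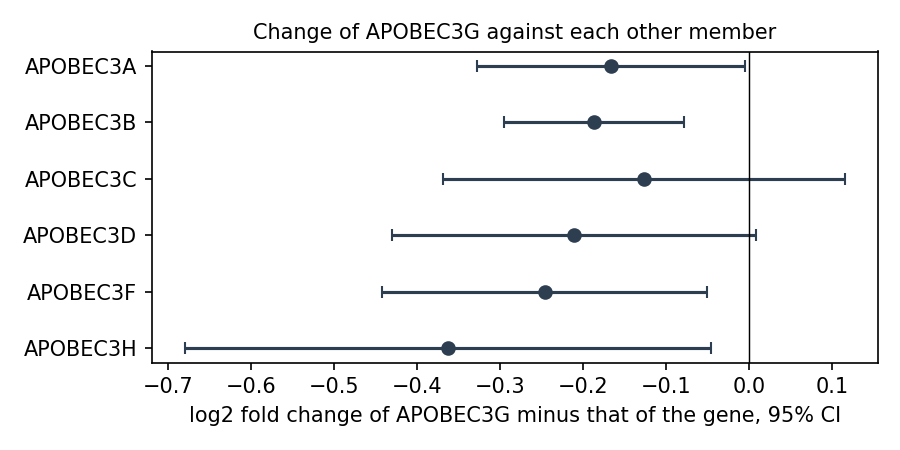
Difference between the log2 fold change of APOBEC3G and that of each other member (x axis, points), with its 95% CI (bars). Negative values mean a larger fall of APOBEC3G; the intervals for APOBEC3C and APOBEC3D include 0.

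Over all named probe sets, the siH19-2 arrays were split on the second principal component (19.7% of the variance). Replicate 3 stood at 21.1, and replicates 1 and 2 stood at -16.6 and -11.1. The NC arrays lay between them, at 3.98, -0.41 and 3.07. Replicate 3 of siH19-2 was the lowest siH19-2 array for APOBEC3A, APOBEC3C, APOBEC3D and APOBEC3F, lying 0.13 to 0.14 below the group mean for APOBEC3C and APOBEC3D and 0.053 to 0.054 below it for APOBEC3F and APOBEC3A. For APOBEC3G the same array lay 0.0094 above the group mean. Pearson's r with APOBEC3G over the 6 arrays was 0.79 for APOBEC3B, 0.64 for APOBEC3A, 0.58 for APOBEC3C, 0.28 for APOBEC3D, 0.0033 for APOBEC3F and -0.32 for APOBEC3H. These values describe arrays that form 2 groups, so they mix the change between groups with variation inside them.

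The 5 probe sets most like APOBEC3G by Pearson's r over the 6 arrays were picked from 11224 that varied at least as much. APOBEC3A, APOBEC3B, APOBEC3C, APOBEC3D and APOBEC3F varied less than APOBEC3G and could not be among the 5 picked. They were DBF4 (r = 0.9997), the activating partner of the replication kinase CDC7, BRWD1 (0.9988), a chromatin-binding bromodomain protein, HOOK3 (0.9988), a dynein adaptor, STN1 (0.9984), a subunit of a telomere replication complex, and YWHAZP2 (0.9981), a pseudogene. All 5 fell in limma, by 0.28 for DBF4, 0.38 for BRWD1, 0.67 for HOOK3, 0.31 for STN1 and 1.00 for YWHAZP2 on the log2 scale, and were picked for following APOBEC3G.

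Position was the next feature the members share. None of the 12 nearest genes with a probe set, 6 on each side of the cluster, changed in limma, although DNAL4 passed after a filter on dim probe sets (limma adjusted p = 0.030). SUN2, a nuclear envelope protein, DNAL4, a dynein light chain, and CBX7, a Polycomb subunit, were higher in all siH19-2 arrays. Their log2 fold changes were 0.11 (limma adjusted p = 0.16), 0.14 (0.11) and 0.12 (0.17). How many of all named probe sets were higher in all siH19-2 arrays was not counted, here or for the genes below. On the APOBEC3A side PRDX3P1, NPTXR, CBX6 and LOC105373032 had log2 fold changes of -0.083, -0.092, 0.081 and 0.017. On the APOBEC3H side COX5BP7, PDGFB, RPL3, SNORD83B and SNORD83A had 0.016, -0.044, 0.024, -0.034 and -0.15. RPL3 read 13.33 in every array except siH19-2 replicate 3 (13.40), so its change rests on that array. The values for LOC105373032, COX5BP7 and SNORD83B changed sign when single arrays were left out. Inside the cluster, 3 further noncoding or uncharacterized genes were measured and none passed limma. APOBEC3B-AS1, the antisense transcript of APOBEC3B, had a log2 fold change of -0.090 (limma adjusted p = 0.63), LOC107985563 of -0.21 (0.18) and LOC101927202 of -0.11 (0.33). LOC107985563 and LOC101927202 were lower in all siH19-2 arrays, as were 9.98% of all named probe sets, and APOBEC3B-AS1 overlapped. The APOBEC3 genes are close in sequence, and the authors' annotation lists the same UniGene cluster, a group of related transcript sequences, for APOBEC3A and APOBEC3B, and another for APOBEC3B and APOBEC3D. Whether probes respond to more than 1 member was not tested.

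**Figure D3:**
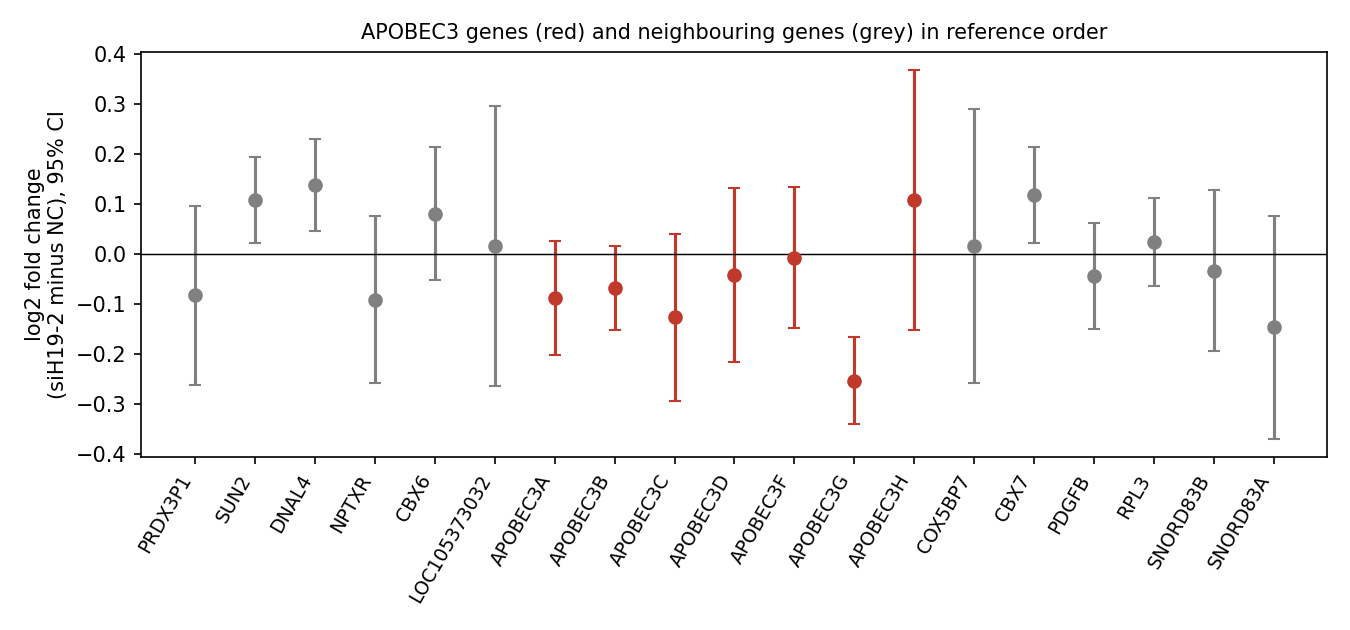
Log2 fold change of siH19-2 over NC (y axis, points) with 95% CI (bars) for the APOBEC3 genes (red) and the 6 nearest measured genes on each side (grey), in the order of the reference annotation (x axis). APOBEC3G, at -0.25, is the lowest of all genes plotted, and SUN2, DNAL4 and CBX7 lie between 0.11 and 0.14. The further genes inside the cluster are not plotted.

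To place the family among its partners, 108 genes in 11 lists chosen by role were read from the same limma fit. Of these, 18 genes (16.7%) passed the test, 8 lower and 10 higher, with a median log2 fold change of 0.048. All 18 were among the 96 list genes brighter than the median probe set, and 9.84% of all such brighter probe sets passed. Calls on 6 of the 18 genes, CBFB, SERINC5, E2F5, DCP1A, DCP2 and STAU1, were kept without any 1 array. The other 12 were lost without at least 1, and the count of called genes was 6 without each array in turn except siH19-2 replicate 3, without which it was 10.

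**Figure D4:**
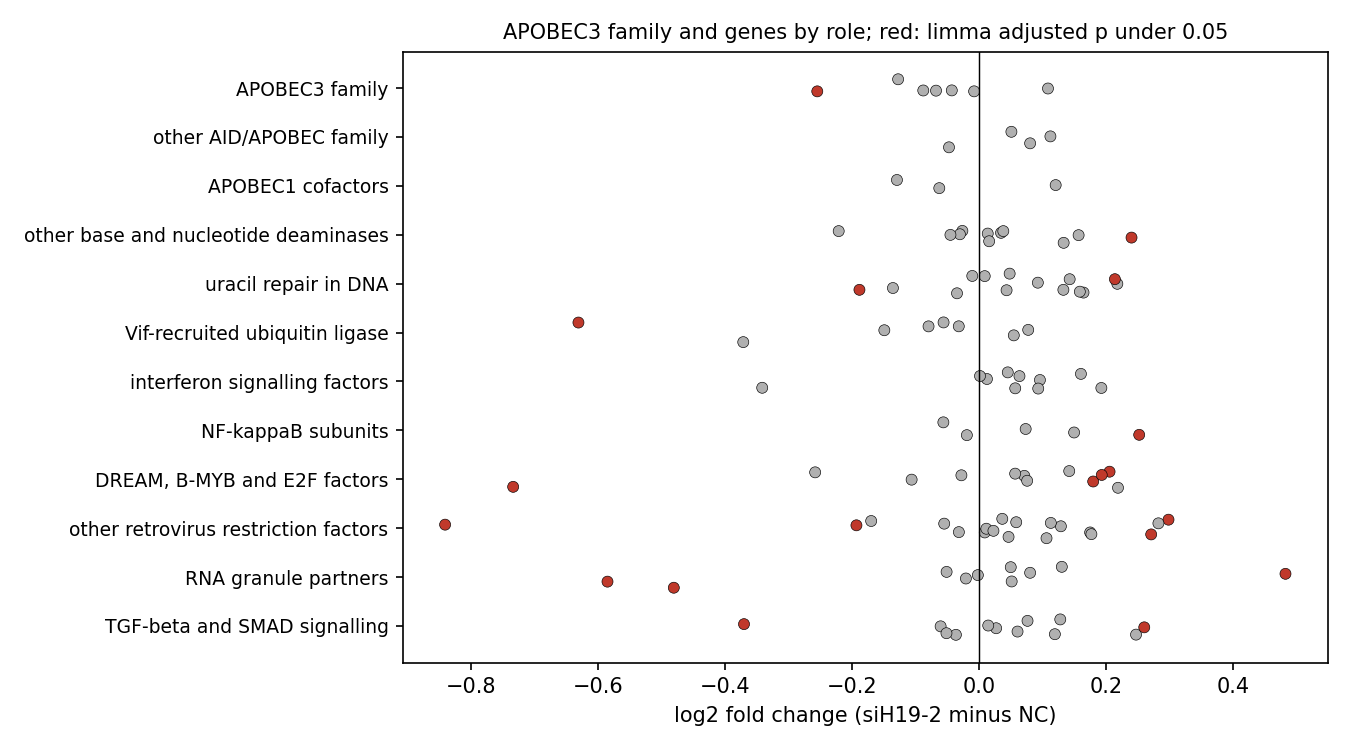
Log2 fold change of siH19-2 over NC (x axis) for each gene (point) of the APOBEC3 family and of 11 lists by role (y axis); red points passed limma at an adjusted p below 0.05, and vertical scatter within a line has no meaning. The called genes furthest from 0 are SERINC5 at -0.84, E2F5 at -0.73 and CBFB at -0.63.

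None of the other 4 deaminases of the AID and APOBEC family changed, with mean NC signals of 3.94 to 5.72. Examples are APOBEC1, the RNA editing enzyme of the apolipoprotein B transcript, at a log2 fold change of 0.11 (limma adjusted p = 0.54), and APOBEC2, a muscle protein, at 0.081 (0.37). None of the 3 APOBEC1 cofactors changed, although RBM47 was lower in all siH19-2 arrays (log2 fold change -0.13, limma adjusted p = 0.17) and A1CF higher in all (0.12, 0.19). Of 11 other base and nucleotide deaminases, ADARB1, an adenosine deaminase that edits RNA, was the only one to change and rose by 0.24 (limma adjusted p = 0.016). That call was kept only without siH19-2 replicate 3. Of 14 genes for the repair of uracil in DNA, the flap nuclease FEN1 rose by 0.21 (limma adjusted p = 0.026) and the thymine DNA glycosylase TDG fell by 0.19 (0.049). Both calls were lost without any 1 array. UNG, which removes the uracil that APOBEC enzymes make, had a log2 fold change of 0.16 (limma adjusted p = 0.081).

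Among the 8 genes of the ubiquitin ligase that HIV Vif recruits against APOBEC3G, CBFB was the only one that changed. CBFB gave 10.64, 10.66 and 10.65 in NC and 9.99, 9.96 and 10.11 in siH19-2. The groups were far apart, and CBFB fell by 0.63 (SE 0.048, limma adjusted p = 0.0032) to 64.6% of control. CBFB is better known as the partner subunit of the RUNX transcription factors. UBE2F, the NEDD8-conjugating enzyme of CUL5, was lower in all siH19-2 arrays without passing (log2 fold change -0.37, limma adjusted p = 0.096), and CUL5 itself had a log2 fold change of 0.078 (0.56).

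Among factors that control APOBEC3 transcription, none of the 10 interferon signaling factors passed limma. The closest were the receptor chain IFNAR2 (log2 fold change -0.34, limma adjusted p = 0.052) and the kinase JAK1 (0.16, 0.065). The count of this list was 3 after the filter on dim probe sets, 2 with a trended robust prior and 2 with the methods' test in place of limma. IFNAR2 passed under the first 2 of these settings (limma adjusted p = 0.012 and 0.024) and without siH19-2 replicate 3 (0.049), and JAK1 passed under all 3 settings. Of 5 NF-kappaB subunits NFKB1 rose by 0.25 (limma adjusted p = 0.028), a call lost without any 1 array. Of 12 genes for the DREAM complex, B-MYB and E2F proteins, which control cell cycle genes and APOBEC3B, 1 fell and 3 rose. E2F5 gave 6.95, 6.87 and 6.80 in NC and 6.11, 6.13 and 6.20 in siH19-2, and it fell by 0.73 (SE 0.052, limma adjusted p = 0.0026). The pocket proteins RBL1 and RBL2 rose by 0.21 (limma adjusted p = 0.037) and 0.18 (0.040), and the E2F partner TFDP1 by 0.19 (0.032). All 3 of these higher calls were lost without any 1 array. B-MYB itself, encoded by MYBL2, had a log2 fold change of 0.071 (limma adjusted p = 0.52).

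Of 19 other restriction factors of retroviruses, 2 fell and 2 rose. SERINC5, a membrane protein that lowers the infectivity of HIV particles, gave 8.00, 7.99 and 8.04 in NC and 7.14, 7.15 and 7.23 in siH19-2. It fell by 0.84 (SE 0.041, limma adjusted p = 0.0010) to 55.9% of control, the largest fall in the 11 lists. The zinc finger antiviral protein ZC3HAV1 fell by 0.19 (limma adjusted p = 0.028). The capsid-binding factor TRIM5 rose by 0.30 (limma adjusted p = 0.023), and the ubiquitin ligase MARCH8, now named MARCHF8, by 0.27 (0.012). ZC3HAV1 and TRIM5 lost their calls without any 1 array, and MARCH8 kept its call only without siH19-2 replicate 3. Other interferon-induced members of this list had log2 fold changes of 0.0092 for BST2, 0.012 for MX1, 0.059 for MX2, 0.11 for IFITM1, -0.055 for IFITM2 and 0.023 for IFITM3. The interferon-induced genes GBP2, TRIM22 and GBP5 had 0.18, 0.13 and 0.11 and, like IFITM1, were higher in all siH19-2 arrays. None of these 9 genes passed limma.

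The core of the interferon-stimulated response element, GAAA followed by any 2 bases and a second GAAA, was looked for on both strands in RefSeq promoter windows of build GRCh38.p14, from 250 bases before to 50 after each gene start. It was in 3.57% of the 35116 windows of that length. Of the 19 restriction factors 14 matched a window by symbol. A gene was counted if any of its windows held the core, unlike the share above, which is of single windows. By that count 5 genes held the core, BST2, IFITM1, IFITM3, MX1 and TRIM5. Of these only TRIM5 passed limma. These stretches are shown because they belong to the interferon-induced genes whose values are set beside the family, each with 20 bases on either side (1 window for MX1) and with the core, or overlapping cores, in capitals. TTTC followed by any 2 bases and TTTC is the core read from the other strand.
BST2, chr19:17405725-17405780, minus strand: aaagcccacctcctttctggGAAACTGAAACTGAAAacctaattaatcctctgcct
IFITM1, chr11:313980-314063, plus strand: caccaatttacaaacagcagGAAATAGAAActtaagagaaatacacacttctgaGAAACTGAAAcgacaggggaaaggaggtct
IFITM3, chr11:320866-320932, minus strand: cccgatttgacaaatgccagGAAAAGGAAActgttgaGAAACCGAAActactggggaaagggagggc
MX1, chr21:41420549-41420598, plus strand: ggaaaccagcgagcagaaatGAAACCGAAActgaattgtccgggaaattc
TRIM5, chr11:5685072-5685121, minus strand: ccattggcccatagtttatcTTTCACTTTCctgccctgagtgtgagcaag

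Among the APOBEC3 genes only APOBEC3H had a window under its symbol, and these letters were not in it. It is printed whole, as the one promoter of a member at hand.
APOBEC3H, chr22:39096994-39097293, plus strand: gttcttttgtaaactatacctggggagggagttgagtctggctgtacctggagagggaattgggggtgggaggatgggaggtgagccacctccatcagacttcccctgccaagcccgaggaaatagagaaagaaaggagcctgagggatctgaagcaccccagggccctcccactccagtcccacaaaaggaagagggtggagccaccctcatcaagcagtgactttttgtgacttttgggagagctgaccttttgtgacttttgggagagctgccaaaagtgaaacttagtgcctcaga

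RNA granule proteins, with which APOBEC3G associates in the cytoplasm, held some of the clearest calls. Of 10 genes 2 fell and 1 rose. DCP1A, a cofactor of mRNA decapping, fell by 0.58 (limma adjusted p = 0.0033), and STAU1, which binds double-stranded RNA, fell by 0.48 (0.0033). DCP2, the decapping enzyme, rose by 0.48 (limma adjusted p = 0.0033), so that these partners moved in opposite directions. MOV10, an RNA helicase that restricts retroelements, had a log2 fold change of -0.020 (limma adjusted p = 0.79) and AGO2, the slicer of RNA interference, of -0.051 (0.51). Of 12 genes of TGF-beta and SMAD signaling, the receptor TGFBR1 fell by 0.37 (limma adjusted p = 0.026), a call lost without any 1 array. TGFBR3, a coreceptor, rose by 0.26 (limma adjusted p = 0.012), a call kept only without siH19-2 replicate 3. SMAD2 and SMAD3 had log2 fold changes of -0.060 (limma adjusted p = 0.49) and -0.051 (0.52).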

How the data were processed

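Clariom D arrays of 3 NC and 3 siH19-2 samples were used. The deposited values are log2 signals per probe set for each array, normalized by the authors with limma per the methods, whose statistics section also names JMP for analysis of the arrays; the background correction, build and annotation were not given in the sources used here. A second deposited table holds the authors' means per group, used only to check the array values, and columns of their own comparison (difference, t, p, adjusted p and index), which were not used. Of 39334 probe sets 73 without a gene name were left out.

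Groups were compared with limma 3.58.1 in R 4.3.3 (lmFit and eBayes, two-sided, Benjamini-Hochberg over 39261 probe sets, threshold 0.05), and the procedure was tested on simulated data. Differences between members used per-array differences with 4 residual degrees of freedom. Arrays give no counts, and their number limits the precision. Members and lists were chosen with earlier results of these data known. Named were all members, H19, the cluster's neighbors, up to 4 called genes of each list (with none, the 2 with the smallest p) and the 5 probe sets most like APOBEC3G by Pearson's r. Other list genes and markers given with values (UNG, CUL5, UBE2F, MYBL2, the interferon-induced factors, MOV10, AGO2, SMAD2, SMAD3, the single markers) were added after their values were seen. Neighbors came from a reference gene order, and promoters from RefSeq. Alternatives were cyclic loess, median centring, a filter on dim probe sets, a trended robust prior and Student's t-test in place of limma. Further ones were the replicate number as a block, Bonferroni-Holm on the limma p-values, and leaving out each array. The t-test was adjusted by Benjamini-Hochberg, whereas the study corrected its t-tests by Bonferroni-Holm. Alternatives for the differences between members, and for the count of members lower in all arrays, were chosen after seeing the data.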

Additional observations from a re-analysis of the deposited data

How the results depend on the processing

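Cyclic loess, median centring, the dim filter, the trended robust prior and Student's t-test with Benjamini-Hochberg adjustment left APOBEC3G and H19 called. The labels do not say whether same-numbered arrays were paired. Deviations of these arrays from their group means correlated at r = 0.0052 to 0.0099, which does not show whether they were handled in pairs. With the replicate block APOBEC3G had a log2 fold change of -0.25 (limma adjusted p = 0.11) and H19 -0.30 (0.091), and under Bonferroni-Holm both values stood at an adjusted p of 1. Without single arrays the APOBEC3G log2 fold change was -0.27 to -0.24 and that of H19 -0.32 to -0.28, and the calls lost are given above. Called members numbered 0 with the block, with Bonferroni-Holm and without each array.

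Called probe sets numbered 2067, and 4058 after the dim filter, 3449 with the trended prior, 74 with the block, 43 with Bonferroni-Holm and 464 to 1078 without single arrays. Called list genes numbered 18, and 37, 32, 1, 1 and 6 to 10 in the same order. Intervals of the difference from APOBEC3G that exclude 0 numbered 4, then 2 with the block and 1 to 4 without single arrays. Log2 fold changes without single arrays ran from -0.054 to 0.037 for APOBEC3F (positive without NC replicate 2, and at 0.019 without siH19-2 replicate 3) and from -0.080 to 0.024 for APOBEC3D (positive without siH19-2 replicate 3). They ran from -0.079 to 0.13 for COX5BP7 (negative at -0.018, -0.0029 and -0.079 without NC replicates 1 and 2 and siH19-2 replicate 2), from -0.094 to 0.091 for LOC105373032 (negative at -0.094, -0.029 and -0.012 without NC replicate 2 and siH19-2 replicates 1 and 2) and from -0.082 to 0.0094 for SNORD83B (positive at 0.0053 and 0.0094 without NC replicate 3 and siH19-2 replicate 1). Calls gained are given above for DNAL4, IFNAR2 and JAK1. APOBEC3H was too dim for the filter. Fewer arrays leave fewer degrees of freedom; the cause of the other shifts was not tested.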
